A study of Homo sapiens with 8 samples.

Results

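The genes described here are the ZNF genes of moderate to high expression in Jurkat cells, an established human cell line of T-cell acute lymphoblastic leukemia. They were selected on their symbol, ZNF followed by a number, and chosen by their mean FPKM across the 8 libraries, which had to be 5 or more. Of the 13453 genes in the table, 395 are named in this way, and 171 of them reached that level. A further 175 had a mean FPKM from 1 to under 5, and 49 were below 1. FPKM is a fragment count scaled to transcript length and to library size, so levels may be compared between genes. The mean FPKM of the 171 genes ranged from 5 to 117, with a median of 9.4. Just inside the limit were ZNF181 (5), ZNF322 (5.1) and ZNF286B (5.11), and just outside were ZNF550 (4.95), ZNF136 (4.94) and ZNF548 (4.93).

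There were 4 kinds of Jurkat cells with 2 libraries each, in 2 sets. The shRNA set held sh-Ctrl cells, which carry a control hairpin directed at no gene, and sh-CBAP cells, in which CBAP was knocked down. The CRISPR set held CBAP-KO cells made with CRISPR/Cas9, given back CBAP fused to GFP (CBAP-reconstituted) or given GFP alone (CBAP-KO+GFP). All cells of the CRISPR set therefore carry the knockout, which was isolated as single-cell clones, and the shRNA cells were puromycin-selected clones. The libraries of a condition were not said to come from separate cultures, so p-values measure the spread between libraries, which may be technical. Except where a set was fitted alone, that spread was pooled over both sets, although it was unequal. Over the ZNF genes, the median absolute log2 difference between the 2 libraries was 0.179 in sh-CBAP and 0.11 in sh-Ctrl. It was 0.0533 in CBAP-KO+GFP and 0.0422 in CBAP-reconstituted. The shRNA-set p-values therefore rest in part on the closer CRISPR-set libraries, and the reverse. Changes were taken within each set and then compared between the sets, which share no library.

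CBAP is encoded by TMEM102. Its FPKM was 4.07 and 4.74 in sh-Ctrl and 2.69 and 2.89 in sh-CBAP libraries, a log2 change of -0.51 (standard error 0.096, adjusted p = 0.0287 by limma). Each of the 4 CRISPR-set libraries listed TMEM102 at 0, also those labelled CBAP-reconstituted. A listed 0 can be a failed estimate, so TMEM102 gives no check of this label, and every direction given for the CRISPR set rests on the labels alone. Of 8 T-cell markers, 7 were in the table. CD3D was 446 or higher in all libraries, whereas CD28 was 2.93 and 2.59 in the libraries labelled CBAP-reconstituted and 24.1 or higher in the other 6. Of 8 markers of B, myeloid and erythroid cells, CD79A alone was in the table. Like CD28 it was lowest in the libraries labelled CBAP-reconstituted, at 0.732 and 1.09, and it was 9.60 to 22.5 in the other 6.

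C2H2 zinc finger proteins bind DNA through repeated fingers, each of which reads a few bases, and they form the largest group of human transcription factors. Many carry a KRAB domain, which recruits TRIM28 (KAP1) and, through it, the histone methyltransferase SETDB1 and HP1 proteins to silence chromatin, in particular at retroelements. Others carry a SCAN domain, which pairs proteins with one another, or no such domain, and some act on RNA, ribosomes or ubiquitin instead of DNA. KRAB genes lie in tandem clusters, above all on chromosome 19.

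Most of the 171 genes encoded such proteins. The position of 170 was found in the GRCh37 annotation, 162 by symbol and 8 by an older symbol, and 166 had a coding sequence that could be translated. Of these, 163 held at least 1 C2H2 finger, with a median of 9 and a maximum of 36 in ZNF142. A KRAB profile was found in 72, a SCAN signature in 13, both in 5, and neither in 86. KRAB proteins had a median of 10 fingers and the others a median of 6. On chromosome 19 lay 46 of the genes (26.9%), beside 177 of all 395 ZNF genes (44.8%), and 29 of those 46 carried KRAB. The expressed ZNF genes were spread over 22 chromosomes.

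Promoters, from 250 bases before to 50 bases after the start, were known for 148 of the genes from RefSeq (GRCh38.p14). The letters CCGGAAGT, the core of an ETS-family site, stood on either strand in 29 of them (19.6%), beside 8.75% of 9139 promoters of other genes at the same level or above and 4.14% of all 35116 promoters. TGACGTCA, the letters of a CREB site, were in 8.11% against 3.11% of the other expressed genes. ACTACAA was in 7.43% against 3.81%, CACGTG in 8.11% against 10.2%, and GCATGCGC in 6.08% against 5.5%. None of these motifs contains another, and a match is a description of letters, not of binding. The 3 windows that follow show the ETS-type letters, in capitals, in a factor named in the results (ZNF384), in a promoter that ZNF646 and ZNF668 share in opposite orientation, and in a KRAB gene on chromosome 6. Each is printed 5′ to 3′ on the strand of the gene it is named for.
ZNF384, chr12:6689566-6689605, minus strand: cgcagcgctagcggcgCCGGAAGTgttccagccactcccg
ZNF646, chr16:31074297-31074336, plus strand: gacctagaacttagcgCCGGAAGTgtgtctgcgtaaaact
ZNF184, chr6:27473107-27473146, minus strand: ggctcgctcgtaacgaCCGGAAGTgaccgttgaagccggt
In the CRISPR set, 10 of the 29 genes with these letters rose and 3 fell, and of the 119 whose promoter lacked them 39 rose and 12 fell. The shares that rose were 34.5% and 32.8%, near each other, beside 23.9% higher and 25.9% lower over all tested genes.

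ZNF207 had the highest level, at 103 and 113 in sh-Ctrl and 105 and 119 in sh-CBAP libraries, and 132 and 133 in the libraries labelled CBAP-reconstituted and 116 and 117 in CBAP-KO+GFP. It encodes a spindle and kinetochore protein that loads BUB3, and it did not pass the test in either set. ZNF22 was next, with 78.1 and 80.3 in sh-Ctrl and 76.0 and 82.1 in sh-CBAP, and 74.6 and 76.3 in libraries labelled CBAP-reconstituted against 95.3 and 96.9 in CBAP-KO+GFP. Its libraries overlapped in the shRNA set and were apart in the CRISPR set, where it rose by 0.34 on the log2(FPKM + 1) scale (standard error 0.053, adjusted p = 0.00373 by limma). ZNF593, ZNF146 and ZNF428 completed the 5 highest.

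Some values were listed as exactly 0. This was so in at least 1 library for 21 of the 171 genes (12.3%), against 503 of the 8677 tested genes at 5 FPKM or more (5.8%). Of the 21, 10 were at 0 in sh-CBAP replicate 2 and 1 to 6 in each other library. ZNF24, a SCAN protein, was 24.6 in sh-CBAP replicate 1 and 0 in replicate 2, with 24.0 to 41.7 in the other 6 libraries. ZNF195 was likewise 12.7 and 0 in these libraries, ZNF266 was 15.2 and 0 in the CBAP-KO+GFP libraries, and ZNF783 was 0 and 23.8 there. MTA1 and CHD4, subunits of the NuRD complex used by most cells, were also at 0 in some libraries and at 51.2 or higher in the others, so a 0 is given here only as a listed 0 and no fold change was drawn against it.

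In the shRNA set the ZNF genes changed little. Of the 171, 3 rose and 8 fell (adjusted p under 0.05, limma on log2(FPKM + 1) with Benjamini-Hochberg adjustment over 11427 genes). That is 1.75% and 4.68%, against 3.62% higher and 8.7% lower over all tested genes, and 3.54% and 8.91% over the 8677 of them at 5 FPKM or more. The median change was -0.05, and it was -0.06 over all tested genes. The excess of falls depended on scaling, as it became 11 rises and 7 falls with quantile-normalized values and 8 and 6 with libraries centred on their median. The count of 11 was 29 without sh-CBAP replicate 1, 21 without sh-CBAP replicate 2 and 6 without sh-Ctrl replicate 2, and it was 1 or 2 without any 1 library of the CRISPR set, which shares the estimate of spread.

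Among the genes that passed, ZNF562, a KRAB gene, fell most. Its FPKM was 6.09 and 5.67 in sh-Ctrl and 2.82 and 3.43 in sh-CBAP libraries, and the groups were well apart. The change was -0.74 (standard error 0.091, adjusted p = 0.0107 by limma). Its neighbour on chromosome 19, ZNF561, was 5.58 and 5.56 in sh-Ctrl and 3.87 and 4.40 in sh-CBAP (-0.36, adjusted p = 0.0413). ZNF562 lies at 9752483 to 9785776 on the minus strand of GRCh37.

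Of the other falls, those of ZNF524, ZNF395, ZNF598 and ZNF219 were in genes without a KRAB profile. ZNF524 was 6.19 and 7.36 against 4.16 and 4.35 (-0.56, adjusted p = 0.0289 by limma). ZNF395, a DNA-binding factor linked to hypoxia, was 15.3 and 13.1 against 9.60 and 10.04 (-0.48, adjusted p = 0.0221). In each of these the sh-CBAP libraries were below both sh-Ctrl libraries. ZNF598, a ubiquitin ligase that acts on collided ribosomes, was 37.7 and 40.3 against 29.6 and 33.0 (-0.31, adjusted p = 0.0413), and ZNF219, a transcription factor, was 13.6 and 14.1 against 11.02 and 11.19 (-0.30, adjusted p = 0.0316).

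Of the 10 shRNA-set calls named here, that of ZNF562 alone also passed whichever 1 library was left out, and each of the other 9 was lost without at least 1 library. With the shRNA set fitted alone or with the replicate block, 0 of the 171 genes passed by limma, ZNF562 included (13 and 22 at an unadjusted p under 0.05). The 3 genes that rose were ZNF678, ZNF281 and ZNF711. ZNF281, a factor known from stem cells and epithelial transition, was 13.6 and 13.0 in sh-Ctrl and 17.3 and 17.9 in sh-CBAP (0.38, standard error 0.055, adjusted p = 0.0161 by limma). In the CRISPR set its change was 0.16 (adjusted p = 0.0552).

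In the CRISPR set many more passed. Of the 171 genes, 53 rose and 17 fell in CBAP-KO+GFP cells (31% and 9.94%), against 23.9% higher and 25.9% lower over all tested genes, and 22.7% and 28.5% over those at 5 FPKM or more. The median change was 0.20, beside 0.00 over all tested genes and -0.03 over those at 5 FPKM or more. It was 0.130 with quantile-normalized values, with 50 rises and 21 falls, and 0.136 with libraries centred on their median, with 51 and 25. In 101 genes (59.1%) both CBAP-KO+GFP libraries exceeded both of the libraries labelled CBAP-reconstituted, against 43% of all tested genes, and in 41 (24%) both were below, against 42.7%. With the 21 genes that have a listed 0 left out, 52 rose and 15 fell. The count of 70 calls was 38 and 41 without CBAP-reconstituted replicates 1 and 2, of which 29 and 32 were rises, and 112 when the set was fitted alone. The plot of changes by set shows the shift of the cloud above 0 on the CRISPR axis alone.

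**Figure D1:**
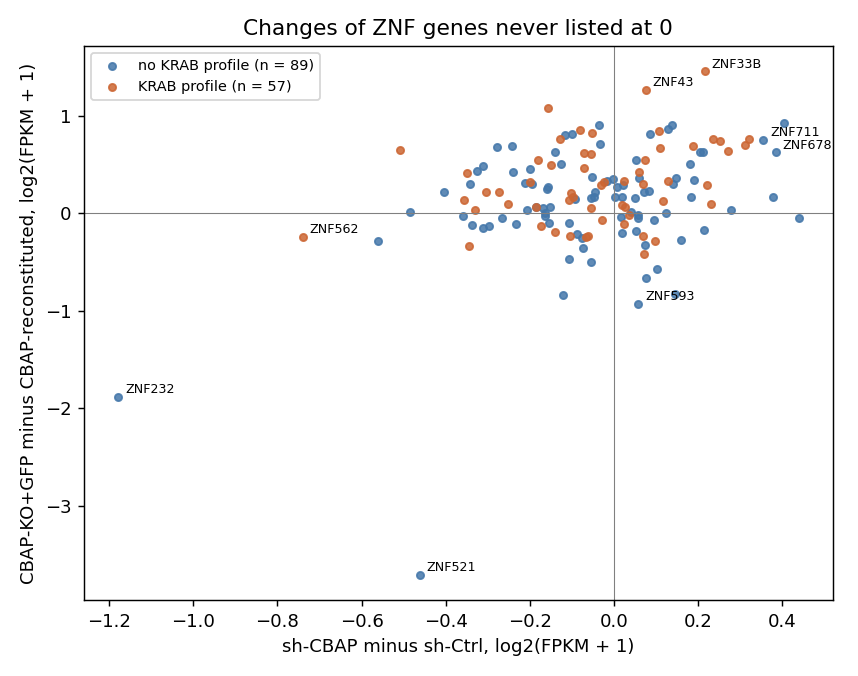
Change of each ZNF gene never listed at 0 in the shRNA set (x axis) and in the CRISPR set (y axis), both as differences of log2(FPKM + 1), coloured by KRAB profile in the canonical protein. Most points lie above 0 on the y axis, and ZNF521 lies lowest at -3.71.

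ZNF521 fell furthest among genes without a listed 0. This gene, a co-factor of early hematopoietic cells that is active in leukemia, was 15.8 and 16.5 in the libraries labelled CBAP-reconstituted and 0.253 and 0.375 in CBAP-KO+GFP. The CBAP-KO+GFP mean was 0.0194 of the CBAP-reconstituted mean, and the change was -3.71 (standard error 0.141, adjusted p = 3.16e-05 by limma). In the shRNA set ZNF521 was 10.9 and 9.73 in sh-Ctrl and 8.36 and 6.20 in sh-CBAP (-0.46, adjusted p = 0.0893), so it was close to undetected in CBAP-KO+GFP libraries alone.

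ZNF232, a SCAN gene on chromosome 17, was 47.4 and 46.4 in libraries labelled CBAP-reconstituted and 11.6 and 12.3 in CBAP-KO+GFP libraries (-1.88, standard error 0.378, adjusted p = 0.00932 by limma). It was 32.2 and 32.5 in sh-Ctrl and 8.51 and 21.8 in sh-CBAP libraries, which were both below the controls but far from each other, and the change of -1.18 did not pass (adjusted p = 0.1). ZNF593, whose yeast counterpart acts in ribosome assembly, was 75.5 and 71.7 against 36.3 and 39.96 in the CRISPR set (-0.93, adjusted p = 0.00265). ZNF771 was 17.97 and 19.28 against 10.8 and 9.21 (-0.84, adjusted p = 0.0144).

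ZNF764 and ZNF747, neighbouring KRAB genes on chromosome 16, had a listed 0 in each CBAP-KO+GFP library. In the other 6 libraries ZNF764 lay between 11.03 and 16.04 and ZNF747 between 11.6 and 14.7. They sit at 30565085 to 30569695 and 30541688 to 30546668 on the minus strand of GRCh37. Genes nearby went either way, with ITGAL at 0.602 and 0.538 in libraries labelled CBAP-reconstituted and 14.8 and 14.2 in CBAP-KO+GFP libraries, ZNF768 at 1.99 and 2.58 against 5.91 and 6.19, and PRR14 at 10.07 and 11.14 against 18.46 and 19.03. ZNF771 was lower, as given above, and ZNF689 was 20.5 and 22.0 against 21.0 and 20.7. ZNF100 showed the opposite pattern, at 0 in both libraries labelled CBAP-reconstituted and 12.1 to 19.8 elsewhere. Since a listed 0 can be a failed estimate, no fold change is given for these 3 genes.

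ZNF33B rose most of the genes never listed at 0. It encodes a KRAB protein of 16 fingers and was 5.23 and 5.35 in libraries labelled CBAP-reconstituted and 16.9 and 15.6 in CBAP-KO+GFP libraries, a 3.07-fold difference of means and a change of 1.45 (standard error 0.087, adjusted p = 0.000146 by limma). In the shRNA set it was 3.63 and 3.31 against 3.90 and 4.48, not past the test. Of the 100-base windows of its transcript 0.935% also occurred in another gene, mainly its close relative ZNF33A. Only identical windows of canonical transcripts were counted, so reads shared through near-identical stretches were not measured.

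ZNF43, a KRAB gene of chromosome 19 with 19 fingers, was 6.46 and 6.92 against 17.2 and 17.7 (1.26, adjusted p = 0.000348 by limma). ZNF354A was 6.52 and 6.14 against 14.8 and 14.1 (1.08, adjusted p = 0.00303). ZNF367 was 9.13 and 9.85 against 19.1 and 18.8, and ZNF721 was 12.2 and 12.4 against 24.0 and 23.9 (0.93 and 0.91, adjusted p = 0.00227 and 0.00156). The groups did not overlap in any of these, and in none did the shRNA set pass. Of the 25 CRISPR-set calls named here, 16 passed under every alternative, and 9 were lost without at least 1 library (ZNF148, ZNF213, ZNF232, ZNF248, ZNF292, ZNF326, ZNF384, ZNF518B and ZNF771).

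**Figure D2:**
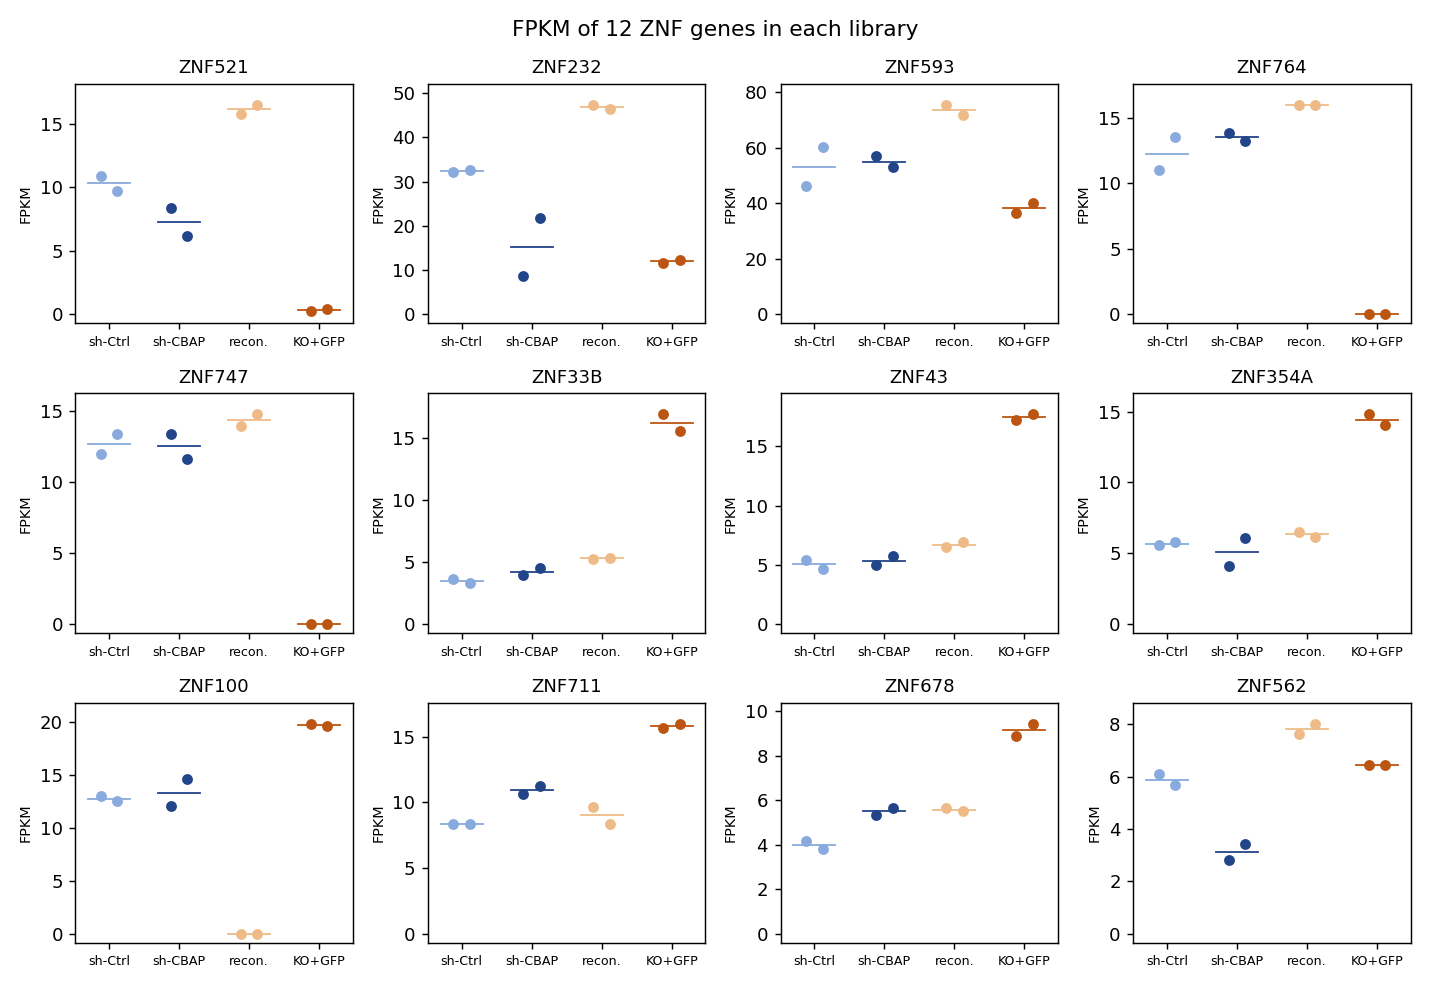
FPKM of 12 ZNF genes in each of the 8 libraries (points) with the mean of each condition (line), where recon. is the condition labelled CBAP-reconstituted and KO+GFP is CBAP-KO+GFP. ZNF521, ZNF764 and ZNF747 are at or near 0 in CBAP-KO+GFP only, and ZNF100 in the condition labelled CBAP-reconstituted only.

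Rises were most frequent among proteins with many fingers, by bins chosen after the values were seen. Over all tested genes 23.9% rose and 25.9% fell in the CRISPR set. Among 68 genes with 10 or more fingers 30 rose (44.1%) and 2 fell, with a median change of 0.32. Among 58 with 5 to 9 fingers 15 rose (25.9%, near the share over all genes) and 7 fell (median 0.08), and among 40 with under 5 fingers 7 rose (17.5%) and 8 fell (median 0.04). In the shRNA set 2 genes with 10 or more fingers rose and 0 fell by limma, with 5 lower at an unadjusted p under 0.05. By KRAB profile, 25 of 72 KRAB genes rose (34.7%) and 5 fell (median 0.25), and 27 of 94 others rose (28.7%) and 12 fell (median 0.16). Within the 10 or more finger class, 20 of 42 KRAB genes and 10 of 26 others rose, with medians of 0.32 and 0.32. On chromosome 19, 14 of 46 rose (30.4%) and 3 fell.

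**Figure D3:**
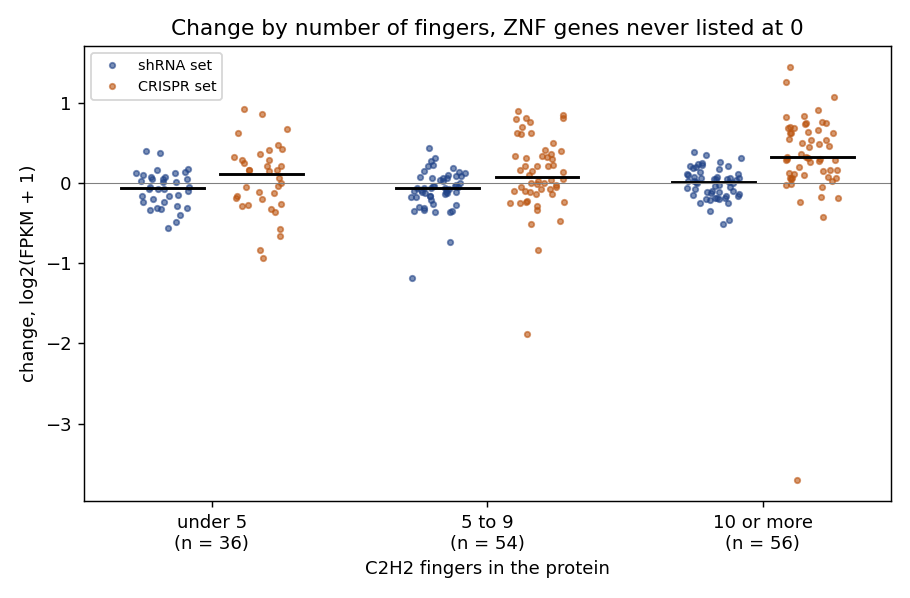
Change of each ZNF gene never listed at 0 by number of C2H2 fingers, with the shRNA set and the CRISPR set side by side and black lines for medians. The CRISPR medians are 0.11, 0.08 and 0.32 from few to many fingers.

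Transcripts of these genes also had lower GC content and greater length than others at this level, with medians of 44.4% against 48% and 3848 against 3190 nucleotides, and both properties moved with the change in the CRISPR set among other genes as well. Of the 5 equal GC bins, the lowest held 47 ZNF genes with a median change of 0.50 and 1467 other genes with 0.09, and the highest held 36 ZNF genes with -0.02 and 1478 others with -0.15. In the lowest GC bin 51.1% of ZNF genes rose and 0 fell by limma (0 lower at an unadjusted p under 0.05), against 26.9% and 15.1% of the others. The longest transcripts had medians of 0.52 for 37 ZNF genes and 0.14 for 1476 others, and the shortest of -0.32 for 8 ZNF genes and -0.35 for 1509 others. Across the 146 ZNF genes never listed at 0 for which both were known, which share the same libraries, Spearman's rho with the CRISPR change was 0.31 for fingers, -0.46 for GC content and 0.39 for length. With the shRNA change of the same genes it was 0.12, -0.32 and 0.04, so a trend with GC content was present in both sets. Among other genes the shRNA median was 0.026 in the lowest GC bin and -0.116 in the highest. The part of GC content and length in the finger pattern was not tested.

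Genes that lie side by side were compared in 11 clusters of at least 4 of these genes with gaps of at most 1 Mb. The share over all tested genes was 23.9% higher and 25.9% lower in the CRISPR set. The clusters described below are those with the most rises or falls in that set. Each of the other clusters had at most 2 rises and 2 falls there, with cluster medians from -0.265 to 0.384. On chromosome 7, from 63980256 to 64866049 of GRCh37, 4 of 5 rose in the CRISPR set with a cluster median of 0.70. ZNF92, chosen after its values were seen, was 15.2 and 15.96 in libraries labelled CBAP-reconstituted and 26.4 and 27.0 in CBAP-KO+GFP libraries (0.74, adjusted p = 0.000895 by limma), and ZNF107, ZNF273 and ZNF680 rose by 0.70, 0.69 and 0.76. In the shRNA set their changes were 0.19 to 0.31 and none passed. On chromosome 19, from 21264965 to 22034927, 3 of 4 rose, ZNF431, ZNF43 and ZNF100, the last against a listed 0. Of the 8 genes from 30389427 to 31928678 on chromosome 16, 0 rose by limma (0 higher at an unadjusted p under 0.05) and 3 fell. Of these 3 calls, those of ZNF747 and ZNF764 were against listed zeros. A listed 0 also stood the other way there. ZNF668 was at 0 in both libraries labelled CBAP-reconstituted and 11.2 and 9.64 in CBAP-KO+GFP libraries (adjusted p = 0.098 by limma). The cluster median was 0.068, and the change was above 0 in 4 of the 8.

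By known role, the promoter activators held 7 of these genes, of which 2 rose and 1 fell in the CRISPR set. That is 28.6% and 14.3%, and the rises were near the 23.9% of all tested genes, of which 25.9% fell. ZNF410, which drives transcription of CHD4, was 27.1 and 24.6 in libraries labelled CBAP-reconstituted and 18.6 and 18.1 in CBAP-KO+GFP libraries (-0.47, adjusted p = 0.00258 by limma). ZNF148 and ZNF384, a recurrent fusion partner in leukemia, rose by 0.29 and 0.22.

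Of 8 partners of histone methyltransferases and demethylases, 4 rose and 0 fell by limma in the CRISPR set (0 lower at an unadjusted p under 0.05), and 1 fell in the shRNA set. The share of rises was 50%, beside 23.9% over all tested genes, of which 25.9% fell. Below the limit of 5 FPKM, ZNF516 and ZNF462 of the same list fell (-0.62 and -0.50, adjusted p = 0.00593 and 0.0237 by limma). ZNF274, also below it, did not pass (-0.11). ZNF217, which works with LSD1 and CtBP, was 16.6 and 16.4 against 29.4 and 29.9 (0.81, adjusted p = 0.000372 by limma). ZNF518A was 8.77 and 8.73 against 15.63 and 16.04, and ZNF518B 10.7 and 10.6 against 15.1 and 14.3 (0.79 and 0.43).

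Of 12 RNA, ribosome and splicing proteins, 1 rose and 3 fell in the CRISPR set, and the 25% of falls was close to the 25.9% over all tested genes. ZNF326, which links transcription to splicing, was 25.8 and 26.5 against 52.6 and 44.6 (0.86, adjusted p = 0.0158 by limma). ZNF385A, an RNA-binding partner of p53, was 7.70 and 7.79 against 4.04 and 3.81 (-0.83, adjusted p = 0.000658), and ZNF622, a factor of 60S ribosome maturation, fell by 0.36.

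Among 6 lymphoid or leukemia-linked genes, the tested ones of a list of 8, 4 rose and 1, ZNF521, fell in the CRISPR set. Over all tested genes 23.9% rose there and 25.9% fell. The lists overlap, and ZNF148, ZNF217 and ZNF384 of the 4 rises were already counted above. ZNF292, altered in lymphoid leukemia, was 6.69 and 6.49 against 9.90 and 10.2 (0.54, adjusted p = 0.00818 by limma). Of 2 retroelement-binding KRAB genes, ZNF248 was 7.58 and 7.50 against 10.2 and 10.5 (0.41, adjusted p = 0.0339), and ZNF33A had a listed 0. Below the limit of 5 FPKM, ZNF91, ZNF136, ZNF382 and ZNF765 of the same list rose by 2.04, 0.90, 0.47 and 0.35. Their adjusted p-values by limma were 4.71e-05, 0.0261, 0.00643 and 0.0186. ZNF429, also below it, did not pass (-0.03). Of 4 genes of SUMO, ubiquitin and repair, 0 passed in the CRISPR set by limma (0 at an unadjusted p under 0.05), and ZNF598 fell in the shRNA set.

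Of 35 tested genes of the machinery that KRAB proteins recruit, 8 rose and 6 fell in the CRISPR set, and 2 rose and 4 fell in the shRNA set. The shares in the CRISPR set, 22.9% and 17.1%, compare with 23.9% and 25.9% over all tested genes, and those in the shRNA set, 5.71% and 11.4%, with 3.62% and 8.7%. Of the 35, 5 had a listed 0 in a library, and MTA1, 1 of the 6 falls, was listed at 0 in each CBAP-KO+GFP library. TRIM28 was 308 and 306 in libraries labelled CBAP-reconstituted and 192 and 187 in CBAP-KO+GFP libraries (-0.69, standard error 0.073, adjusted p = 0.00094 by limma). SETDB1 was 9.66 and 9.70 against 12.7 and 13.3 (0.39, adjusted p = 0.016), and ATF7IP, its partner, 4.88 and 5.04 against 18.5 and 20.3 (1.77, adjusted p = 4.16e-05). In the shRNA set these 3 did not pass. Most of the genes of this list that passed there went the opposite way in the CRISPR set. CHD3, RBBP4 and GATAD2B fell in the shRNA set (-0.56, -0.61 and -0.45) and rose in the CRISPR set (0.99, 0.36 and 0.49). MORC2 rose by 0.28 in the shRNA set and changed by -0.60 in the CRISPR set. MTA2 and EHMT2 passed in the shRNA set (0.32 and -0.61) and not in the CRISPR set (0.04 and 0.06). ZNF genes with a mean FPKM from 1 to under 5 numbered 175, of which 60 rose (34.3%) and 15 fell (8.57%) in the CRISPR set with a median of 0.25. The 33 ZBTB, ZSCAN, ZKSCAN and ZFP genes at 5 or above had 17 rises (51.5%) and 0 falls by limma, with 1 lower at an unadjusted p under 0.05.

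In all, 3 of the 171 genes passed in both sets, which is 27.3% of the 11 called in the shRNA set and 4.29% of the 70 called in the CRISPR set. ZNF678 was 4.17 and 3.80 in sh-Ctrl and 5.34 and 5.66 in sh-CBAP, and 5.67 and 5.50 in libraries labelled CBAP-reconstituted and 8.88 and 9.42 in CBAP-KO+GFP libraries, a rise of 0.38 and 0.63 (adjusted p = 0.0295 and 0.00142 by limma). ZNF711, an X-linked factor that works with the demethylase PHF8, was 8.34 in both sh-Ctrl and 10.7 and 11.2 in sh-CBAP, and 9.68 and 8.32 against 15.7 and 15.9 in the CRISPR set, a rise of 0.35 and 0.75 (adjusted p = 0.0452 and 0.000999). ZNF213, with both KRAB and SCAN, went opposite ways, at 6.45 and 6.28 against 5.21 and 4.97 in the shRNA set (-0.27) and 5.64 and 5.62 against 6.77 and 6.61 in the CRISPR set (0.21). Over all 11427 tested genes, 197 (1.72%) rose in both sets, 461 (4.03%) fell in both, and 284 (2.49%) moved opposite ways. These came from 1408 shRNA-set calls and 5697 CRISPR-set calls. By share of calls, the overlap was thus lower for the ZNF genes, though from only 11 shRNA-set calls. No ZNF gene fell in both sets.

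For 51 of the 171 genes the shRNA-set and CRISPR-set changes were unequal by limma's interaction contrast (Benjamini-Hochberg adjusted p under 0.05). In 12 it was higher and in 39 lower in the shRNA set, 7.02% and 22.8%, against 15.5% and 18.3% over all tested genes, and 16.8% and 17.1% over those at 5 FPKM or more. Deposited FPKM carried 8 decimals (median) for shRNA libraries but 4 for CRISPR libraries, and whether the sets were quantified together is not given in the sources used here. Leaving out CBAP-reconstituted replicate 1 or 2 gave 19 or 20 genes, leaving out CBAP-KO+GFP replicate 1 or 2 gave 28 or 30, and leaving out sh-CBAP replicate 2 gave 83.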

How the data were processed

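Paired-end reads of 100 bp were mapped by the authors to the hg19 genome (TopHat 2), and cuffdiff of the Cufflinks package gave FPKM. The authors deposited 1 table of FPKM values with a column per library. Per the labels, CASAVA 1.8 and Bowtie were also used. The version of Cufflinks, the annotation and the scaling between libraries are not given in the sources used here. Depth per library is unknown, so precision rests on 2 libraries per condition.

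From the FPKM, log2(FPKM + 1) was taken for 11427 genes whose mean FPKM was 1 or more and fitted with limma 3.58.1 (R 4.3.3, empirical Bayes with trend) with a mean per condition over all 8 libraries and Benjamini-Hochberg adjustment. These changes understate those of low genes. The pipeline was tested on simulated data. Positions and transcripts came from GENCODE release 44 lifted to GRCh37. Fingers were counted by pattern in the canonical translation. The KRAB class used a profile of 40 residues, scored above 0, built from 293 proteins that hold a signature, since the signature alone missed ZNF10. The profile in turn missed ZNF133, ZNF324 and ZNF324B, which hold the signature and were below 5 FPKM. Genes counted as without a KRAB profile may therefore include KRAB genes. The profile, the finger, GC and length bins, and the count without listed zeros were chosen after seeing the data. Sequence shared between genes was checked as identical 100-base windows of canonical transcripts, and 16 of the genes shared any. Near-identical windows and other isoforms were not counted. The genes, the gene lists and their roles were chosen with earlier results of these data known. Named genes were the 6 largest rises and falls per set past the threshold without overlap, those called in both sets, the 5 highest in level, those nearest the limit, role-list examples, the first 5 with a listed 0, and TMEM102.

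Same-numbered libraries had correlated deviations from their condition means of r = 0.15 in the shRNA and 0.024 in the CRISPR set over 11427 genes.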

Additional observations from a re-analysis of the deposited data

Results flagged for a closer look

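The change differed between the sets, by the interaction contrast of limma, for 51 of the 171 ZNF genes. Each value given is the change in sh-CBAP cells less that in CBAP-KO+GFP cells, on the log2(FPKM + 1) scale, so a negative value is a higher change in the CRISPR set. Among the genes that rose in the CRISPR set, the value was -1.24 for ZNF33B, -1.23 for ZNF354A, -1.19 for ZNF43, -0.96 for ZNF518A, -0.87 for ZNF181, -0.77 for ZNF721, -0.76 for ZNF518B, -0.75 for ZNF248, -0.73 for ZNF217, -0.40 for ZNF711 and -0.35 for ZNF22. Among those that fell in the CRISPR set, it was 3.25 for ZNF521, 0.99 for ZNF593, 0.97 for ZNF385A, 0.36 for ZNF410 and 0.28 for ZNF622. Among those that fell in the shRNA set, it was -0.50 for ZNF562, -0.49 for ZNF395, -0.49 for ZNF561 and -0.49 for ZNF213, of which ZNF213 rose in the CRISPR set. The sets differ in how CBAP was removed, in their controls, in their clones and in the decimals of the deposited FPKM (median 8 for shRNA libraries but 4 for CRISPR libraries), which cannot be told apart here. Whether they were quantified together is not given in the sources used here.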

How the results depend on the processing

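Counts of called genes were 11 (shRNA) and 70 (CRISPR), 51 changes differed between the sets, and the median changes were -0.05 and 0.20. With the sets fitted alone, 0 and 112 genes were called. In that shRNA fit 13 genes had an unadjusted p under 0.05, against 35 with all libraries. With the replicate block the shRNA count was 0 by limma (22 at an unadjusted p under 0.05), the CRISPR count 52 and the count of differing changes 20, but the replicate numbers name libraries and pair none. Quantile normalization gave 18 shRNA calls and medians of 0.021 and 0.130, and centring on the median gave medians of 0.005 and 0.136, so the shRNA median changed sign under both. The CRISPR median was 0.145 with a pseudocount of 5 and 0.169 without genes that have a listed 0, by either way of leaving them out. With a mean FPKM of at least 3 for inclusion 78 changes differed between the sets, and with at least 10 the counts were 6, 33 and 24 and the CRISPR median 0.159, from fewer genes. With 1 library left out, the shRNA count ranged from 1 to 29, the CRISPR count from 38 to 99, the differing changes from 19 to 83, the shRNA median from -0.054 to 0.009 and the CRISPR median from 0.177 to 0.208. The cause of these shifts was not tested. Of 630 alternative fits of the 35 named changes without a whole condition at 0, 510 passed the threshold, 120 did not, and none changed sign. In the CRISPR set 16 of 25 passed in every fit, and in the shRNA set 0 of 10. Depth is unknown, so low values carry no counting interval.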
